A study of Homo sapiens with 6 samples.

Results

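The 8 genes TCP1, CCT2, CCT3, CCT4, CCT5, CCT6A, CCT7 and CCT8 encode the subunits of the cytosolic chaperonin CCT, also called TRiC, and were examined by name on every array of a gankyrin knockdown experiment. All probe sets that the array annotation pairs with a member gene and no other were taken. They numbered 12 of the 54675 probe sets on the array and covered 7 of the 8 genes. Every TCP1 probe set in the annotation is also paired with the small nucleolar RNA gene SNORA29, so TCP1 has no value of its own here. Of the 12 probe sets 11 passed a filter on low signal, and the brightest of each gene stood for it among the 14199 genes tested.

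The cells were SW480, an established human colon carcinoma line, grown in serum-containing medium. They carried for 4 days either a non-targeting control shRNA (3 arrays) or an shRNA against gankyrin, the product of PSMD10 (3 arrays), a proteasome assembly chaperone; a short hairpin RNA (shRNA) directs the RNA interference machinery to a chosen transcript. The RNA was hybridised to Affymetrix U133 Plus arrays, on which a probe set is a group of short oligonucleotides read as 1 value. A probe set whose name ends in _s_at or _x_at can match more than 1 transcript. Values are log2 signals, so a difference of 1 is a doubling, and the level of a probe set cannot be set against that of another. Neither the number of hairpins nor whether replicates came from separate cultures is given in the sources used here, so the spread between arrays may be technical.

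CCT is an ATP-driven barrel of stacked rings in which each subunit has a fixed place. It closes over newly made proteins and releases them folded; actin and tubulin are its best known clients, and many proteins built of WD40 repeats also pass through it. Prefoldin hands unfolded chains to the barrel, phosducin-like proteins bind it and modulate folding, and tubulin cofactors take tubulin on to the assembled dimer. In tumour cells the complex is known for folding cell cycle and signalling proteins as well as the cytoskeleton.

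The arrays fitted their labels. PSMD10 was at 10.15 to 10.23 on the control arrays and at 6.30 to 6.58 on the knockdown arrays on its brighter probe set, and 8 of 9 colon epithelial markers had a mean above 6 on the log2 scale, the exception being CDX2. Among markers of other cells, 1 of 8 for fibroblasts (COL1A1), 1 of 5 for leukocytes (LYZ) and 0 of 6 for endothelium exceeded 6. Their summed signals in control and knockdown ran from 7.71 to 8.04 and 8.10 to 8.14 for fibroblasts, from 12.32 to 12.38 and 12.19 to 12.37 for leukocytes, and from 6.55 to 6.58 and 6.51 to 6.68 for endothelium. For the colon epithelial genes the sums ran from 14.47 to 14.50 in control and from 14.38 to 14.42 in knockdown; KRT20, CDH1 and KRT19 fell, by 0.66, 0.64 and 0.46 on the log2 scale (limma, adjusted p = 0.000106, 0.000863 and 0.00111), and VIL1 rose by 0.82 (limma, adjusted p = 0.000233). FAP was the 1 of these fibroblast genes that rose, from 4.15 to 4.49 in control to 4.95 to 5.34. A sentence of the design text names NFIL3 in place of gankyrin; NFIL3 was at 9.21 to 9.47 in control and 9.03 to 9.12 in knockdown arrays. The 18S control probe sets were higher on all knockdown arrays (7.30 to 7.55 against 6.02 to 6.28 on the 3′ set). The part of these differences in the values of the CCT genes was not tested.

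Control replicate 3 stood apart. On that array 935 of the 32759 probe sets past the filter lay at least 1 (log2) below both other control arrays, themselves within 0.3 of each other, whereas each other array had 0 or 1 such probe sets. This measure was chosen after the values were seen. The 3′ signal of the actin control probe sets exceeded the 5′ signal by 1.82 on control replicate 3 and by 0.43 to 0.53 on the other arrays; for GAPDH the difference was 0.56 against -0.11 to 0.00. The median signal of the tested genes was 7.03 there and 6.82 to 6.90 elsewhere. The part of this array in the values was not tested beyond leaving it out. Values without it are given for each measured CCT subunit and for some of the genes that work beside CCT.

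Promoter sequences are shown for CCT2, CCT3 and CCT8, the measured subunits whose promoter window holds a CCAAT box, because CCT2 and CCT8 had a higher and CCT3 a lower knockdown mean, none of them past the threshold. Each window runs from 250 bases before to 50 bases after the RefSeq start, 5′ to 3′ on the gene's strand (GRCh38.p14), and capitals mark a CCAAT box (CCAAT or its reverse complement) or an ETS motif (CCGGAAG, either strand).
CCT2 (chr12:69585209-69585508, plus strand): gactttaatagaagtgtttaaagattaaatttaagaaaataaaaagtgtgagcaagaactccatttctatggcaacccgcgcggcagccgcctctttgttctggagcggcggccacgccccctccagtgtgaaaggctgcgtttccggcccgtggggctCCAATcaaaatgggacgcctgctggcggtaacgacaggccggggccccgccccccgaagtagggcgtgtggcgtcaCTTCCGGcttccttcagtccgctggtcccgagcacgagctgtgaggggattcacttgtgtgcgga
CCT3 (chr1:156338243-156338542, minus strand): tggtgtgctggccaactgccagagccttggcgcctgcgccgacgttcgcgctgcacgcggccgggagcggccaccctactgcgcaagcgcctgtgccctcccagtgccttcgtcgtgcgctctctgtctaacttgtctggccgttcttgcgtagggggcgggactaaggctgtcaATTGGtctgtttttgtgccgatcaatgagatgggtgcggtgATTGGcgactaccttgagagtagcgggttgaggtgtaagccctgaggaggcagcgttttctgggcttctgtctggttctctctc
CCT8 (chr21:29073599-29073898, minus strand): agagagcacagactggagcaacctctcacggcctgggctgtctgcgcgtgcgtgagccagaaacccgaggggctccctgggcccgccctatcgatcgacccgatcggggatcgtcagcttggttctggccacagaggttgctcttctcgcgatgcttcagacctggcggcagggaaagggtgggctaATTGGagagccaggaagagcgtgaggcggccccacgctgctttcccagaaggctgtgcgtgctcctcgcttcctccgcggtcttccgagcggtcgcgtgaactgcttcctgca
The CCAAT box was present in 4 of the 6 CCT gene windows at the outermost start (CCT2, CCT3, CCT8 and TCP1). Over all 9 CCT windows, inner starts included, it was in the same 4. It was in 34.6% of all 35116 windows of this length, which are not limited to outermost starts. CCT3 has the box at positions -75 and -34, CCT2 at -91 and CCT8 at -63 from the start. The ETS motif was found in CCT2 alone, at -15, and in 10.3% of all windows. Of these 6 windows the heat shock element core GAANNTTC was found in TCP1 alone, at -231 (6.77% of all windows). Neither the arrangement TTCNNGAA (7.74%) nor the E-box CACGTG (7.26%) was found in these 6 windows, both strands searched. Windows around further starts held other matches. GAANNTTC was at -89 from a CCT2 start 430 bases inside the gene. TTCNNGAA was at 39 from a CCT4 start 15 bases inside the gene. The table holds no CCT6A window, and its CCT5 window lies around a start 616 bases inside the gene and is not shown. A match is a run of letters and not a shown binding site.

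Loss of gankyrin was accompanied by little change in the measured chaperonin subunits. CCT5 was the 1 subunit of 7 that passed the test across all genes, rising 1.14-fold, and 0 fell. The background was 22.5% of all genes called and 8.13% called as higher. Of the 676 genes at least as bright as the dimmest of the 7 subunits, 34.2% were called, with a median log2 fold change of 0.0067. The other 6 subunits lay between 0.97-fold and 1.11-fold of control. The median log2 fold change of the 7 was 0.11, against -0.02 over all 14199 genes, and the median size of change over all genes was 0.14. The median of the 7 was 0.075 without control replicate 3. For the CCT genes it was largest in CCT5 at 0.19. In bulk RNA a change in every cell and a change in the number of cells that carry a transcript cannot be told apart.

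CCT5, the epsilon subunit, was at 11.61, 11.66 and 11.43 on the control arrays, in the order of their replicate numbers, and at 11.72, 11.75 and 11.79 on those of the knockdown. All knockdown arrays lay above all control arrays, and the lowest value was that of control replicate 3. The log2 fold change was 0.19 ± 0.06 SE (limma across all genes, adjusted p = 0.0418, 95% interval 0.06 to 0.31, or 1.04-fold to 1.24-fold). Without control replicate 3 the change was 0.12 and still passed (limma, adjusted p = 0.0286). Without control replicate 1 it did not (limma, adjusted p = 0.0519). Dropping each knockdown array in turn also ended the call, with limma adjusted p-values of 0.0870, 0.115 and 0.149. With every probe set past the filter tested in place of 1 per gene, the same CCT5 values did not pass (limma, adjusted p = 0.0982).

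CCT2, the beta subunit, was at 11.94, 12.01 and 11.84 on control arrays and at 12.03, 12.08 and 12.04 on knockdown arrays. CCT7, the eta subunit, was at 11.14, 11.16 and 11.09 against 11.21, 11.22 and 11.22. In both genes the groups did not overlap, and control replicate 3 was again the lowest array. CCT2 differed by 0.12 ± 0.05 SE (limma, adjusted p = 0.0893, 95% interval 0.02 to 0.22) and CCT7 by 0.09 ± 0.04 SE (limma, adjusted p = 0.152, 95% interval -0.0023 to 0.18). Neither passed the threshold. With control replicate 3 left out the differences were 0.075 for CCT2 and 0.067 for CCT7, again not past the threshold, whereas without control replicate 2 CCT2 was at 0.16 and passed (limma, adjusted p = 0.0434). CCT2, CCT5 and CCT7 were the 3 of 7 subunits whose knockdown values all exceeded the control values, a pattern that 15.7% of all genes showed.

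CCT6A, a zeta subunit, was at 11.03, 11.13 and 10.87 on control arrays and at 11.03, 11.20 and 11.24 on knockdown arrays, and the groups overlapped at knockdown replicate 1. Its log2 fold change was 0.15 ± 0.07 SE (limma, adjusted p = 0.186). It was 0.077 without control replicate 3 (limma, adjusted p = 0.345). CCT8, the theta subunit, was at 10.96, 11.04 and 11.14 against 11.07, 11.20 and 11.21. It was the 1 subunit for which control replicate 3 was the highest control array, and that array overlapped knockdown replicate 1. CCT8 differed by 0.11 ± 0.06 SE (limma, adjusted p = 0.194). Without control replicate 3 the difference was 0.16 and passed (limma, adjusted p = 0.0198), so the CCT8 call turns on that array.

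CCT4, the delta subunit, was at 11.95, 11.98 and 11.86 on control arrays and at 11.96, 11.95 and 11.98 on knockdown arrays. The difference was 0.033 ± 0.040 SE (limma, adjusted p = 0.603) and became -0.0017 without control replicate 3. CCT3, the gamma subunit, was at 10.60, 10.69 and 10.62 against 10.57, 10.64 and 10.57 and was the 1 subunit with a lower knockdown mean. Its difference was -0.043 ± 0.047 SE (limma, adjusted p = 0.561), within the spread of the arrays, and -0.052 without control replicate 3. The 95% intervals bound the change at 0.96-fold to 1.09-fold for CCT4 and 0.90-fold to 1.04-fold for CCT3.

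**Figure D1:**
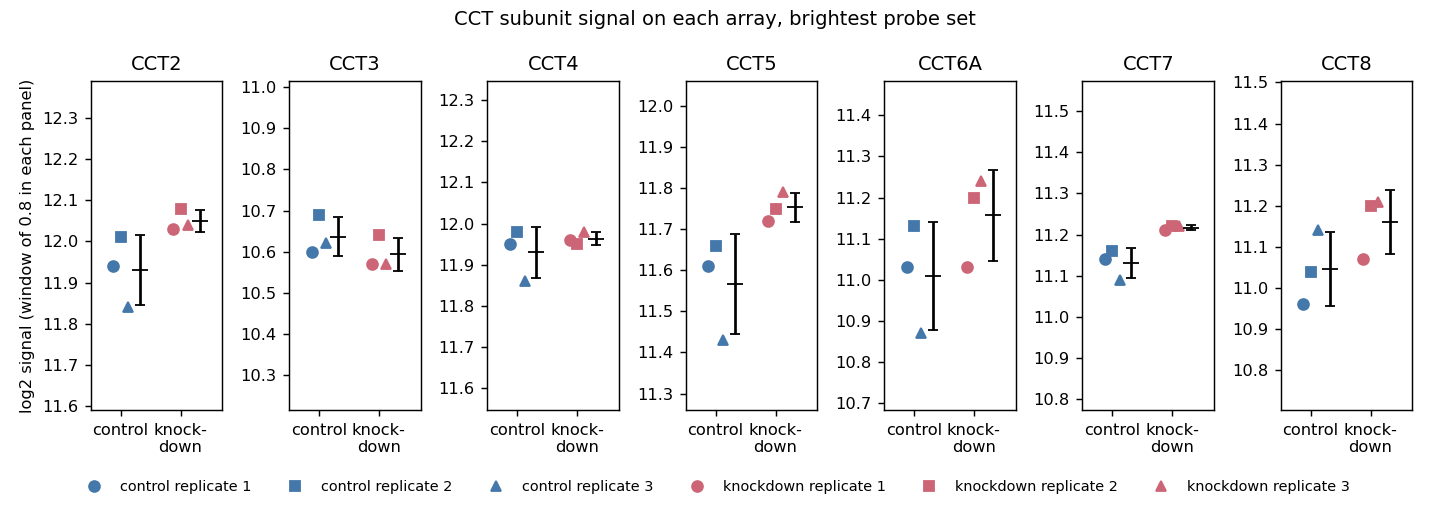
Log2 signal of the 7 measured CCT subunits on each array (y axis, a window of the same height in every panel; symbols give the replicate), with the mean and SD of each group (n = 3) in black. The groups separate for CCT2, CCT5 and CCT7 and overlap for CCT3, CCT4, CCT6A and CCT8.

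These differences are of the size that a choice of scale can move. Centring each array on the median of the genes tested, an alternative added after the data were seen, moved the median change of all genes from -0.02 to 0.08 and that of the subunits from 0.11 to 0.21. Under that scale all 7 subunits were higher, CCT3 at 0.06 included, and CCT5, CCT7 and CCT8 passed, beside 26.4% of all genes called. Among all called genes the higher share went from 36.2% to 60.7%. The medians used were 6.87, 6.90 and 7.03 for the control arrays, in replicate order, and 6.82 to 6.84 for the knockdown arrays. The part of control replicate 3 in this shift was not tested. Centring on the median of all probe sets left CCT5 at 0.18 and not past the threshold (limma, adjusted p = 0.0700).

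Setting each subunit against the mean of the other 6 on the same array takes the scale of the arrays out. CCT3 then stood at -0.84, -0.81 and -0.75 in control and at -0.93, -0.93 and -1.01 in knockdown arrays, a shift of -0.16 relative to the other subunits. Only the shift has a meaning, since the level depends on the probes. CCT4 shifted by -0.07 and CCT5 by 0.11, likewise without overlap between the groups. CCT2, CCT6A, CCT7 and CCT8 shifted by -0.0061 to 0.06, with overlap. By construction the shifts of the measured subunits cancel out. The downward shifts of CCT3 and CCT4 are therefore in part the counterpart of the upward shifts of other subunits. How often genes outside the complex separate on such a measure was not tested. The exact two-sided permutation test gave p = 0.1 for CCT3, CCT4 and CCT5, the smallest that 3 against 3 arrays allow, so it cannot reach 0.05. Without control replicate 3 the shifts were -0.13 for CCT3, -0.08 for CCT4 and 0.06 for CCT5, still without overlap, and CCT8 at 0.11 no longer overlapped either.

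Of the 11 probe sets past the filter, 0 passed when all 32759 were tested (limma; 3 at an unadjusted p under 0.05), beside 10.6% called among all probe sets. The count was 2 without control replicate 3, the brighter CCT5 set and the brighter CCT8 set (limma, adjusted p = 0.0440 and 0.0353). The 3 were the brighter sets of CCT2 and CCT5 and the CCT7 set, the same 3 whose knockdown values all exceeded the control values, as 15.5% of all probe sets did. The second CCT2 probe set, 201946_s_at, was at 11.33, 11.47 and 9.91 on control arrays and at 11.48, 11.54 and 11.45 on knockdown arrays. Its large nominal difference of 0.59 came with an interval of -0.27 to 1.45 and rests on the single low value of control replicate 3. Without that array the difference was 0.09 (limma, adjusted p = 0.212), beside 0.075 on the brighter set.

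The second CCT6A probe set, 201326_at, was at 10.32, 10.35 and 10.50 against 10.34, 10.33 and 10.37, a difference of -0.043, so the 2 CCT6A sets differed in sign and neither passed. The second CCT5 set, 229068_at, was at 6.66, 6.57 and 6.81 against 6.68, 6.86 and 6.88, with overlapping groups and a difference of 0.13 ± 0.10 SE. The second CCT4 set, 227171_at, was at 5.20, 5.25 and 5.13 against 5.37, 5.22 and 5.25, a difference of 0.09 ± 0.09 SE. The second CCT8 set, 210436_at, was below the filter limit of 3.6, at 2.63 to 3.52 in control and 2.99 to 3.31 in knockdown arrays. It was not tested.

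**Figure D2:**
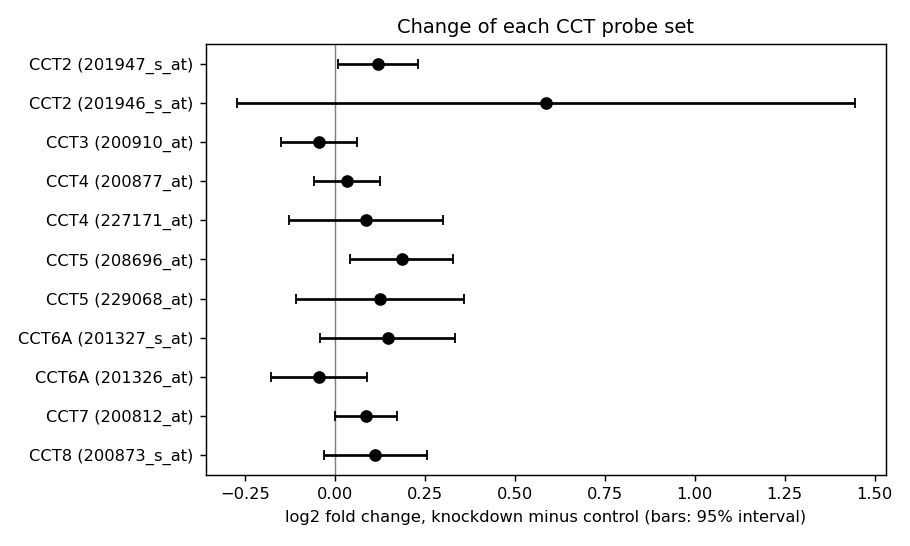
Log2 fold change (x axis, knockdown minus control) of the 11 CCT probe sets past the filter, with 95% intervals from the fit over all probe sets (n = 3 per group). The interval of 201946_s_at, from -0.27 to 1.45, is far wider than those of the other sets.

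**Figure D3:**
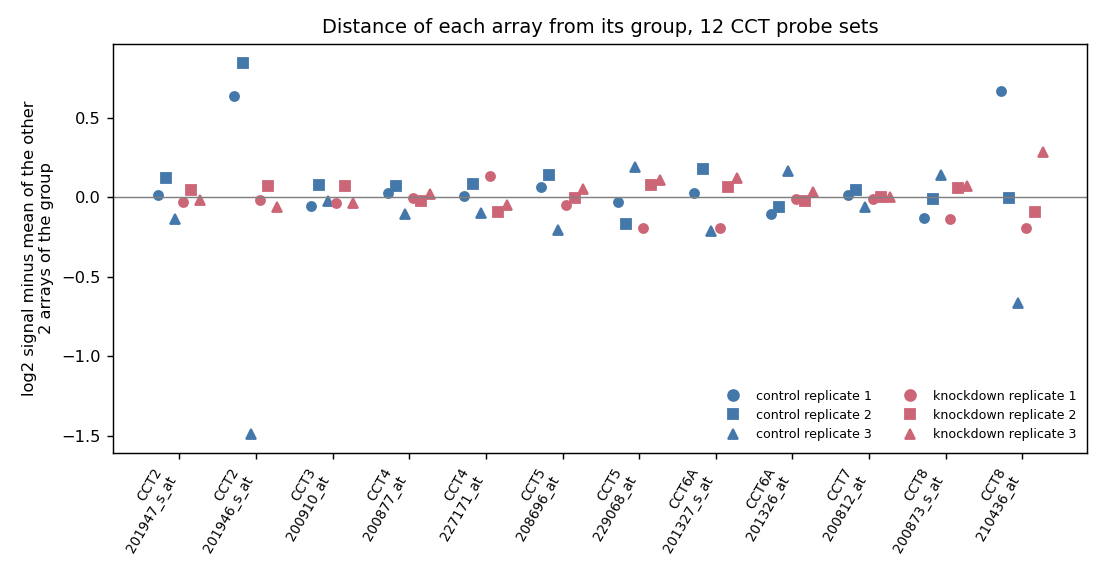
Log2 signal of each array minus the mean of the other 2 arrays of its group (y axis) for the 12 single-gene CCT probe sets. Control replicate 3, whose own signal was 9.91, lies far below its group on the second CCT2 set. The spread of the last set is that of a signal below the filter limit.

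Between arrays of the same group the 7 subunits moved by small amounts. Control replicate 3 was the lowest control array for 5 of the 7 and control replicate 2 the highest for 6. Among knockdown arrays replicate 1 was the lowest for 6 of the 7, tied with replicate 3 for CCT3. Of the 676 genes at least as bright as the dimmest subunit, control replicate 3 was the lowest control array for 31.4%. Knockdown replicate 1 was the lowest knockdown array for 49.6% of them, with ties given to the lower replicate number. The mean profile of the subunits over the 6 arrays, each gene taken from its own mean, was -0.05, 0.01 and -0.10 for the control arrays in replicate order and 0.0026, 0.07 and 0.07 for the knockdown arrays. The other genes nearest to this profile, by the root mean square difference over the 6 arrays, were PPP4R3B (0.015), CHMP2A (0.017), NACA (0.019), CYB5R1 (0.019) and LRRC14 (0.020). For comparison the distance of the subunits themselves ran from 0.024 for CCT7 to 0.08 for CCT8. None of these 5 genes passed the test.

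Genes that work beside the barrel changed in both directions. Prefoldin delivers clients to CCT. Of 9 listed prefoldin and prefoldin-like genes 8 were measured, of which 1 rose and 1 fell. Among all genes 8.13% were called as higher and 14.3% as lower. VBP1, a prefoldin subunit, was at 10.72, 10.77 and 10.78 in control and 11.01, 11.01 and 10.99 in knockdown arrays. Its rise of 0.25 ± 0.04 SE (limma, adjusted p = 0.00273) exceeded that of any CCT gene and left a clear gap between the groups. PDRG1, a prefoldin-like protein, fell by 0.26 (limma, adjusted p = 0.0191), from 8.56, 8.69 and 8.57 to 8.37, 8.31 and 8.36; this call was lost when control replicate 2 or any knockdown array was left out, and under centring on the genes tested (-0.16; limma, adjusted p = 0.124). The median of the list was 0.04. Without control replicate 3 the list had 3 rises and 1 fall, beside 29.3% of all genes called and 12.7% called as higher.

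Of the phosducin-like genes 2 of 4 were measured and 0 passed (limma; 1 at an unadjusted p under 0.05); PDCL, a regulator of G protein beta subunit folding, was lower by 0.23 without passing (limma, adjusted p = 0.0729). Among 5 further genes of the chaperonin family 1 fell and 0 rose, beside 14.3% of all genes called as lower. That gene was BBS10, which helps to assemble the BBSome of the primary cilium, at -0.41 ± 0.10 SE (limma, adjusted p = 0.0182), from 6.20, 6.15 and 6.38 to 5.81, 5.72 and 5.97. BBS10 no longer passed when either of the first 2 knockdown arrays was dropped, with limma adjusted p-values of 0.0728 and 0.0860. It was at -0.34 without control replicate 3 and still passed (limma, adjusted p = 0.0112). CCT6B, the paralog of CCT6A known from testis, was at 6.33 to 6.45 in control and 6.44 to 6.66 in knockdown arrays and did not pass.

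Among 7 tubulin cofactors, which carry folded tubulin to the dimer, 2 rose and 0 fell, with a median of 0.06. Among all genes 8.13% were called as higher. TBCE, which acts on alpha-tubulin, rose by 0.39 ± 0.10 SE (limma, adjusted p = 0.0222), from 8.12, 8.07 and 8.44 to 8.63, 8.48 and 8.69. The small GTPase ARL2 rose by 0.22 ± 0.07 SE (limma, adjusted p = 0.0467). The TBCE call was lost without control replicate 1 or 2 or knockdown replicate 1 or 3. The ARL2 call was kept in 5 of 16 alternatives, being lost without control replicate 1 or 2 or any knockdown array. Without control replicate 3 TBCE was at 0.505, and the list had 3 rises and 1 fall. In that fit 29.3% of all genes were called and 12.7% were called as higher.

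Of 13 measured genes for actin and tubulin, the main clients of CCT, 6 fell and 0 rose, with a median of -0.12, beside 14.3% of all genes called as lower. The 6 were all tubulins and the other 5 measured tubulins were not called, and under every alternative run 4 to 7 fell and 0 rose. TUBA1A, an alpha-tubulin, was at 9.25, 9.39 and 9.49 in control and at 8.68, 8.64 and 8.56 in knockdown arrays, a fall of 1.68-fold (log2 -0.75 ± 0.07 SE; limma, adjusted p = 0.000141). TUBB2A, a beta-tubulin, went from 10.26, 10.44 and 10.58 to 9.72, 9.85 and 9.63, at -0.69 ± 0.08 SE (limma, adjusted p = 0.000503). On all knockdown arrays both genes lay below all control arrays. Without control replicate 3 TUBA1A was at -0.69 and TUBB2A at -0.62, both still called. TUBB3 and TUBA4A also fell, by 0.46 and 0.39 on the log2 scale (limma, adjusted p = 0.00110 and 0.00405). The calls of TUBA1B and TUBB4B were less firm, kept in 6 and 11 of the 16 alternatives. Tubulin genes of the same family (alpha or beta) are much alike and their probes can be shared. A fall can therefore not be assigned to a single gene with certainty.

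The actin gene ACTB was at 12.86, 12.90 and 13.02 in control and at 12.85, 12.83 and 12.86 in knockdown arrays, and did not pass (limma, adjusted p = 0.200). TUBB, a widely expressed beta-tubulin, differed by -0.02 and did not pass. Whether the fall of the tubulins and the change of the subunits differ was not tested.

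Among 16 other proteins that CCT is known to fold or bind, 4 fell and 0 rose, with a median of -0.0033. Among all genes 14.3% were called as lower. PPP2R2A, a WD40-repeat regulatory subunit of protein phosphatase 2A, fell by 0.62 on the log2 scale (limma, adjusted p = 0.000526), from 9.48, 9.50 and 9.72 to 8.90, 9.03 and 8.91. The transcription factor STAT3 fell by 0.41 (limma, adjusted p = 0.00773), cyclin E1 (CCNE1) by 0.44 (limma, adjusted p = 0.0105) and the mitotic activator CDC20 by 0.28 (limma, adjusted p = 0.0158). The CDC20 call was lost without knockdown replicate 2 or 3 and that of CCNE1 without knockdown replicate 2. PPP2R2A, STAT3, CCNE1 and CDC20 were at -0.54, -0.32, -0.355 and -0.22 without control replicate 3, all still called. Without control replicate 3, and likewise under quantile normalization, the list had 2 rises and 4 falls. With arrays centred on the median of the genes tested it had 4 of each. Among all genes, in that order, 29.3%, 23.5% and 26.4% were called, and 12.7%, 9.61% and 16% were called as higher.

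The mitochondrial chaperonin, a separate folding machine, had 0 of 2 genes called (limma; 1 at an unadjusted p under 0.05): HSPD1 was at 13.02, 12.97 and 12.95 against 13.06, 13.09 and 13.07, a difference of 0.09 (limma, adjusted p = 0.0510), and HSPE1 did not pass. Of the transcription factors HSF1 and MYC, known regulators of chaperone genes, neither passed (HSF1 at 0.13; limma, adjusted p = 0.254). In all, 15 of 55 measured partner genes were called, or 27.3%, 3 of them higher and 12 lower. With arrays centred on the median of the genes tested this split became 12 higher and 9 lower, and without control replicate 3 it became 8 higher and 13 lower. On the scale as deposited, with all 6 arrays, the background was 22.5% of all genes, with 14.3% called as lower. It was 26.4% with that centring (16% called as higher) and 29.3% without control replicate 3 (12.7% called as higher). The calls of TUBA1A, TUBB2A, TUBB3, TUBA4A, VBP1, PPP2R2A and STAT3 were kept under all 16 alternatives run. Further probe sets past the filter existed for 6 of the 15 called partner genes, and all 11 had the sign of the brightest. When all probe sets past the filter were tested 5 of the 11 passed (limma) and 6 did not, the other STAT3 sets, at -0.17 and -0.40, among them. The brightest sets of ARL2, BBS10, TBCE, TUBA1B and TUBB4B did not pass there either. Their limma adjusted p-values were 0.0890, 0.0532, 0.0682, 0.0571 and 0.0576. The brightest sets of the other called partner genes passed.

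**Figure D4:**
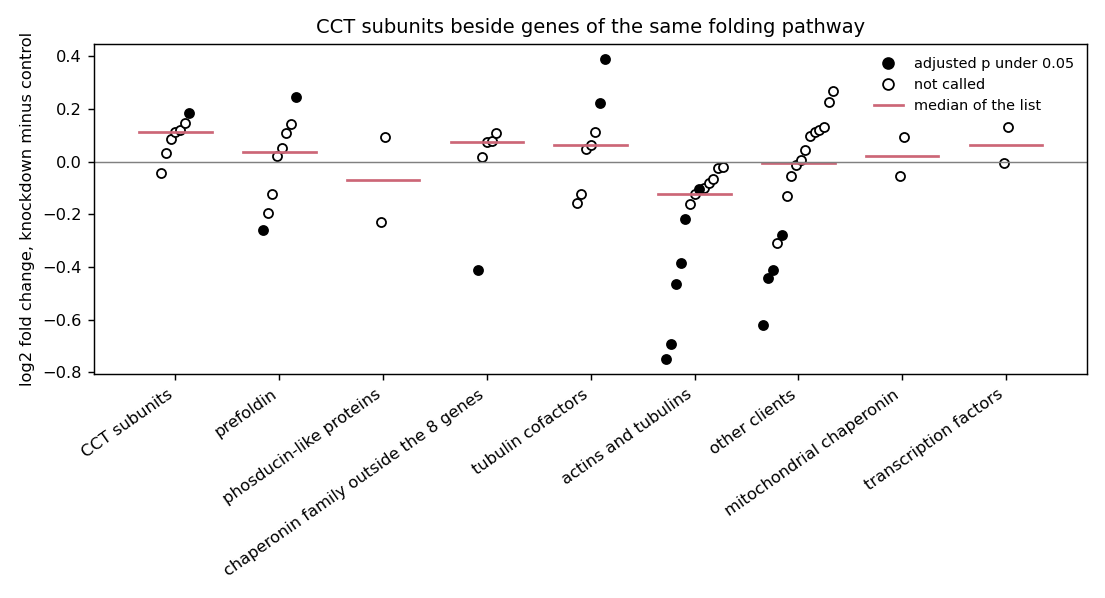
Log2 fold change (y axis, knockdown minus control) of each measured gene, grouped by its role around CCT (x axis); filled points passed at an adjusted p under 0.05 and red lines are medians. The CCT subunits lie between -0.04 and 0.19, whereas the tubulins reach -0.75.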

How the data were processed

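The deposited values were log2 probe set signals of 6 arrays made from 6 ug of total RNA each; the authors' summary method is not given in the sources used here, and MAS5 is named per the submitters' processing notes without role or version. Log2 is inferred from the range of the values. The platform annotation, updated to RefSeq symbols, pairs 41091 probe sets with 1 gene, 1801 with several and leaves 11721 unnamed. Left out were 62 control probe sets and, of the rest, the dimmest 40% by mean signal. The comparison (n = 3 arrays each) used limma (version 3.58.1, R 4.3.3; intensity trend, Benjamini-Hochberg over all features, threshold 0.05, two-sided), over 14199 genes and again over 32759 probe sets. The steps were tested on simulated data. They recovered 0 of 50 genes changed by 0.1 (log2), 3 of 50 at 0.3, 23 of 50 at 0.5 and 41 of 50 at 1. Far fewer genes were called there than in these data (68 against 3189 of 14199), so these rates do not carry over directly. Genes were named by rule: all members, and up to 4 called genes of smallest p per partner list or else its leading gene. The 5 genes of nearest profile were also named by rule. TUBA1B and TUBB4B, called but beyond the limit of 4, were named outside the rule. ACTB, TUBB, CCT6B, HSPE1 and MYC were added after their values were seen. The members and lists were chosen with earlier results of these data known. The number of arrays limits precision. Alternatives changed scale, filter, variance prior, probe set choice, replicate block and the arrays included.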

Additional observations from a re-analysis of the deposited data

How the results depend on the processing

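The direction of the median change of the subunits was positive under every alternative run, from 0.075 without control replicate 3 to 0.21 with arrays centred on the median of the genes tested (added after seeing the data). The number of subunits called, 1 as reported, was 2 under quantile normalization (CCT2 at 0.13 and CCT5), 3 with that added centring, 0 with arrays centred on the median of all probe sets, without a filter, without an intensity trend and with probe sets averaged, and 0 to 2 over the fits that leave out 1 array. CCT5 lost its call at 0.18 with arrays centred on the median of all probe sets, at 0.19 without a filter or an intensity trend and at 0.16 with probe sets averaged; with 1 array left out it ran from 0.12 to 0.23. With 1 array left out CCT2 ran from 0.075 to 0.16 and passed without control replicate 2, CCT4 from -0.0017 to 0.058, CCT6A from 0.077 to 0.21 and CCT8 from 0.070 to 0.16. CCT6A was at -0.043 with sets ending in _s_at or _x_at avoided. The added centring put CCT7 at 0.19 and CCT8 at 0.21, both then past the threshold, CCT3 and its probe set at 0.057, and the second CCT6A set at 0.057; with 1 array left out that set ran from -0.078 to 0.012. The count of CCT probe sets called was 1 with the added centring and 0 to 2 with 1 array left out. All genes called ran from 1732 to 4161 and the partner genes called from 9 to 21 with 1 array left out. The cause of these shifts was not tested. Same-numbered arrays did not deviate together (correlations over genes of 0.020, 0.11 and -0.0055), and not every array was nearest its own number. With the replicate block CCT5 stayed called (limma, adjusted p = 0.0453), and 3049 genes were called against 3189; of the named partner genes ARL2 lost its call under it (limma, adjusted p = 0.0745).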

Other observations

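The 3 probe sets paired with both TCP1 and SNORA29 give no value for TCP1 alone and were kept out of the counts. The brightest, 208778_s_at, was at 10.64, 10.70 and 10.74 in control and at 10.75, 10.83 and 10.80 in knockdown arrays, so the groups did not overlap, and the difference was 0.10 (limma over all probe sets, adjusted p = 0.202). The others, 222010_at and 222011_s_at, were at 7.51 to 7.85 and 6.77 to 7.28 in control and at 7.46 to 7.57 and 6.77 to 6.98 in knockdown arrays. On both of these, control replicate 3 was the highest array, opposite to its place on most CCT sets.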
